A study of Mus musculus with 6 samples.

Results

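Tmem127 is a membrane protein of endosomes and lysosomes and a tumour suppressor in human pheochromocytoma, and its loss is known to raise signalling through mTOR complex 1 (mTORC1). Its transcript was examined in the cortex of newborn mice together with those of 9 regulators of mTORC1 at the lysosome, namely Mtor, Rptor, Deptor, Tsc1, Tsc2, Rheb, Rraga, Rragc and Lamtor1. All 10 genes were found by symbol among the 53379 genes of the count table, and all 10 were among the 21244 genes that passed the filter on low counts. Tmem127 was chosen by its measured difference in counts between the genotypes in these same libraries, and the other 9 were chosen as known regulators with their values in that comparison already seen. The genotype difference of the 10 genes is therefore given as a description, without a p-value for any of them. Counts of these genes under a threshold are description too, and nothing is read from them.

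The tested mice were Npas3+/- at postnatal day 0, carrying 1 disrupted copy of Npas3, a bHLH-PAS transcription factor gene of the nervous system, and they were set against WT mice of the same age. RNA was sequenced in bulk in 3 Npas3+/- and 3 WT libraries of cortex, all labelled C57BL/6. The Npas3 allele and whether each library came from 1 animal or from a pool are not given in the sources used here, so the spread between libraries may be partly technical.

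mTORC1 is a protein kinase complex that drives growth when nutrients and growth factors are both present. Amino acids act through the Rag GTPases, which are held on the lysosome by the Ragulator complex and bring mTORC1 to its surface, where the GTPase Rheb switches the kinase on. The TSC complex keeps Rheb inactive until growth factor signals release it. In the developing cortex the pathway is known for its effect on neuron size and for the malformations and epilepsy that follow loss of TSC1 or TSC2 in humans.

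Total counts per library ran from 67378231 to 87811574, and the 10 genes held between 132 and 12977 reads in each. Npas3 stood at 12.6 ± 3.45 CPM (read counts scaled to the size of each library) in Npas3+/- and 25.8 ± 2.53 CPM in WT cortex (SD, n = 3 each), so the labels and the targeted gene point the same way. Its log2 fold change of -1.04 (SE 0.20) had an adjusted p of 0.270 in edgeR and 1.8e-04 in DESeq2. The edgeR threshold thus missed the targeted gene, and a gene that misses it is not shown to be unchanged. No marker of cortical projection neurons was at 0, and their summed level was 2778 to 3628 CPM in Npas3+/- and 2671 to 2936 CPM in WT libraries. Markers of radial glia and astrocytes moved with genotype: all 10 had negative fold changes, and their sum was 619 to 792 CPM in Npas3+/- against 947 to 1049 CPM in WT. Of the striatal markers 9 of 10 had negative fold changes, with a sum of 75.8 to 128 CPM in Npas3+/- and 81.5 to 249 CPM in WT, and all 8 microglial markers did, with a sum of 20.7 to 37.3 CPM in Npas3+/- and 32.0 to 37.8 CPM in WT. None of these markers passed the threshold over all genes in edgeR, and none was at 0 in every library. In bulk tissue, fewer cells of a type and less RNA per cell cannot be told apart, and the part of cell composition in the values that follow was not tested except where a value is given.

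Tmem127 (ENSMUSG00000034850) lies on the forward strand of mouse chromosome 2, from 127247908 to 127261107 in mm10. It had 135, 132 and 147 CPM in Npas3+/- libraries 1 to 3, against 19.9, 22.1 and 22.4 CPM in WT libraries 1 to 3. The groups were far apart, and within each the libraries stayed close, with an SD of 5.69% of the mean in Npas3+/- and 6.25% in WT. The mean was 138 ± 7.87 CPM in Npas3+/- and 21.4 ± 1.34 CPM in WT (SD, n = 3 each), a ratio of 6.45. The log2 fold change was 2.69 (SE 0.08), the 8th highest among the 15549 genes with a mean of at least 1 CPM. The reads behind it numbered 11871, 10189 and 11117 in Npas3+/- and 1347, 1852 and 1605 in WT.

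The library with the highest Tmem127 level was Npas3+/- replicate 3. On the first principal component of all genes tested (28.0% of variance), that library lay at 23.1, among the WT libraries at 10.8 to 47.7 and away from the other two Npas3+/- libraries at -65.9 and -44.1. Tmem127 did not order the libraries as that component did, and with any 1 library left out the log2 fold change was 2.64 to 2.72. Npas3+/- replicate 3 also had the lowest Npas3 level, 8.61 CPM against 14.96 and 14.1 CPM in Npas3+/- replicates 1 and 2. Elsewhere the order differed. Npas3+/- replicate 2 lay below Npas3+/- replicate 1 in both Npas3 and Tmem127 (132 against 135 CPM for Tmem127). WT replicate 1 was the lowest WT library in both, at 23.4 CPM for Npas3 and 19.9 CPM for Tmem127. A link between the levels of these genes was not tested.

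Overlap with other genes was checked on the annotation. Its 3 annotated transcripts hold 4857 distinct windows of 50 bases, and 0 of them occur in a transcript of any other gene on either strand. No other annotated gene overlaps its span. Whether the extra reads cover the whole transcript or part of it cannot be read from counts per gene.

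**Figure D1:**
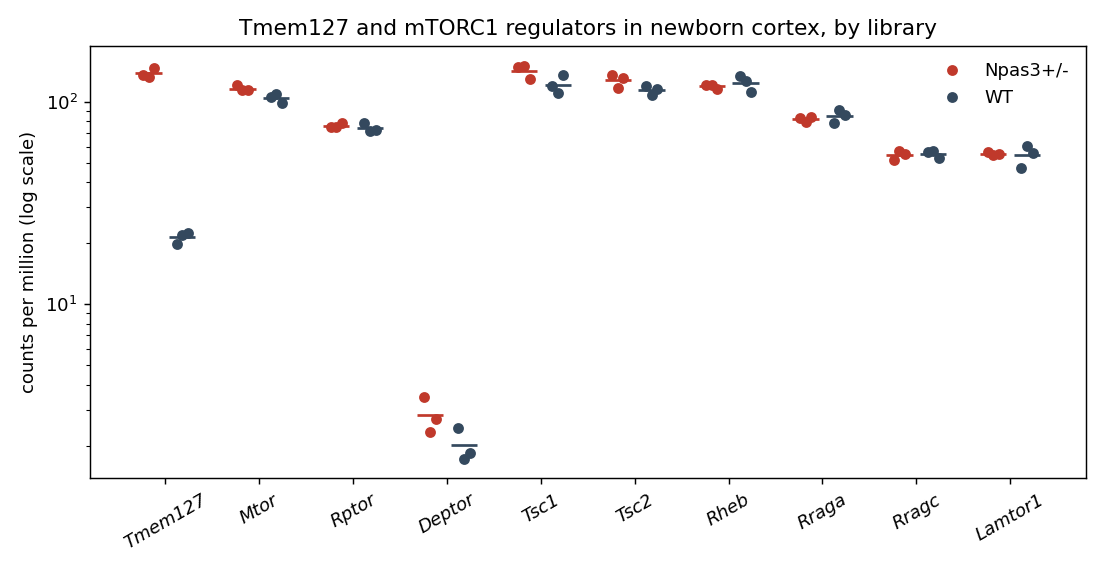
CPM of the 10 genes in each of the 3 Npas3+/- libraries (red, left of each pair) and the 3 WT libraries (dark blue, right), on a log axis, with a bar at each mean. Tmem127 sits at 132 to 147 CPM in Npas3+/- and 19.9 to 22.4 CPM in WT, while the pairs of the other genes lie close together.

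Tmem127 has a close neighbour. Ciao1, which encodes a factor of cytosolic iron-sulfur protein assembly, is read from the opposite strand, and the annotated starts of the pair are separated by 91 bases (mm10 chr2:127247817-127247907). That stretch between them is given here on the strand of Tmem127, from RefSeq's table of build GRCm38.p6, because both genes start beside it and their measured differences are unequal. The capitals mark its 11 CG dinucleotides, and 68.1% of its bases are G or C.
Tmem127 and Ciao1: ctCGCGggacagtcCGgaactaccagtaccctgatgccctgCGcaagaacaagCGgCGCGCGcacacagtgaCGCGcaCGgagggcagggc

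Ciao1 had 28.3, 28.8 and 27.3 CPM in Npas3+/- libraries, against 25.3, 20.1 and 20.6 CPM in WT libraries. The groups did not overlap, as in 18.9% of all genes tested. Its log2 fold change of 0.36 (SE 0.11) missed the threshold by edgeR's quasi-likelihood test with Benjamini-Hochberg adjustment (adjusted p = 0.289), and its mean difference was 6.18 CPM where that of Tmem127 was 117 CPM. On the other side Stard7, which carries phosphatidylcholine to mitochondria, starts 9.11 kb beyond the end of Tmem127 and averaged 140.5 ± 2.21 CPM in Npas3+/- and 141.5 ± 7.65 CPM in WT (SD, n = 3 each), a log2 fold change of -0.01 (SE 0.06) whose sign turned to as much as 0.02 when single libraries were left out.

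Of the 33 other genes annotated within 500 kb of Tmem127, 22 were tested. None of the 22 passed over all genes in edgeR, limma-voom or DESeq2. Over all genes edgeR called 0.0377%, and DESeq2 called 3.17% of those to which it gave an adjusted p. Some of the 22, Adra2b among them, got no adjusted p in DESeq2 and could not be called there. At an unadjusted p under 0.05 there were 2 of the 22, where 12.1% of all genes tested were. These were Ciao1 and Fahd2a, a gene of the fumarylacetoacetate hydrolase family, which stood at 10.4 ± 0.629 CPM in Npas3+/- and 8.63 ± 0.106 CPM in WT (log2 fold change 0.28, SE 0.11, adjusted p = 0.375 in edgeR). The median log2 fold change of the 22 was 0.03, beside -0.01 over all genes tested. The adrenergic receptor gene Adra2b had the third smallest p, with a log2 fold change of -1.70 (SE 0.76, adjusted p = 0.428 in edgeR), but its level was only 0.0800 ± 0.0593 CPM in Npas3+/- and 0.266 ± 0.104 CPM in WT.

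**Figure D2:**
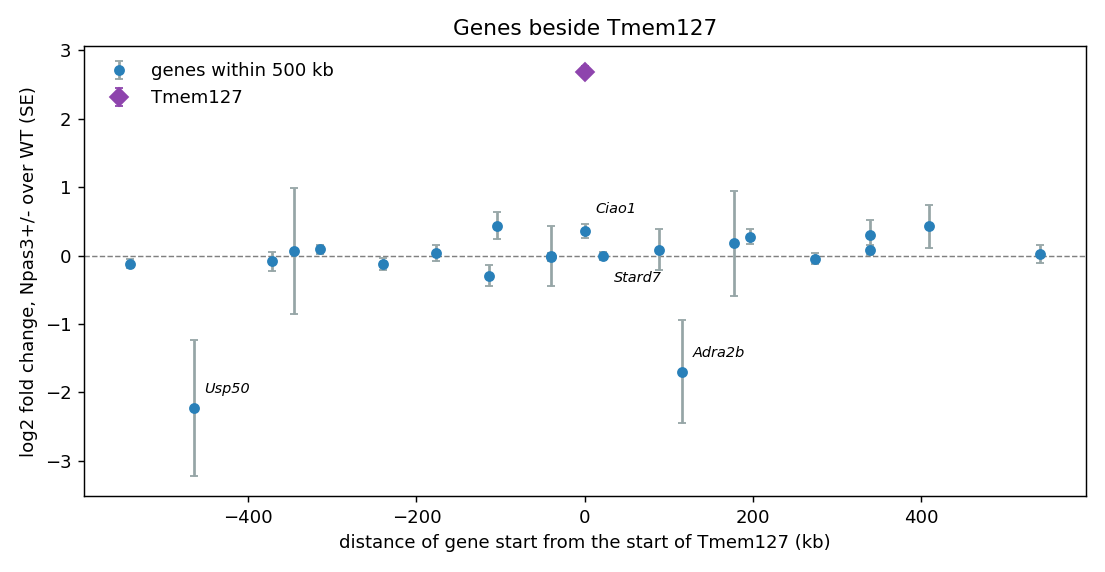
Log2 fold change of Npas3+/- over WT with its SE (vertical) against the distance of each gene's start from the start of Tmem127 in kb (horizontal), for Tmem127 (purple diamond) and the 22 tested genes within 500 kb (blue). Tmem127 stands at 2.69, and Ciao1 and Stard7 beside it at 0.36 and -0.01.

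Of the core of the complex, Mtor encodes the kinase itself and Rptor encodes raptor, the scaffold that binds its substrates. Mtor (ENSMUSG00000028991, chromosome 4, 148448611 to 148557683) had 120.2, 114 and 114 CPM in Npas3+/- libraries, against 105, 109 and 98.8 CPM in WT libraries. All Npas3+/- values lay above all WT values, and the log2 fold change was 0.15 (SE 0.06). Rptor (ENSMUSG00000025583, chromosome 11, 119602905 to 119899576) had 74.8, 74.8 and 78.3 CPM in Npas3+/- and 78.2, 71.9 and 72.3 CPM in WT, with a log2 fold change of 0.04 (SE 0.06). The groups overlapped, since WT replicate 1 was higher than Npas3+/- replicates 1 and 2.

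Deptor (ENSMUSG00000022419, chromosome 15, 55112317 to 55259271) encodes an inhibitory partner of mTOR and was the member with the lowest level. It had 3.48, 2.34 and 2.71 CPM in Npas3+/- libraries, from 180 to 306 reads, against 2.45, 1.73 and 1.84 CPM in WT libraries, from 132 to 166 reads. Npas3+/- replicate 2 lay below WT replicate 1, so the groups overlapped. Its log2 fold change of 0.51 was the second largest of the members, but with an SE of 0.24 it was also the least certain, and it ranged from 0.34 to 0.68 with 1 library left out. Its exons share 303 bases, 3.41% of their length, with Gm9920 on the opposite strand, which was not among the genes tested, and 3.78% of its windows of 50 bases occur in transcripts of other genes.

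Tsc1 and Tsc2 encode hamartin and tuberin, the paired proteins of the TSC complex, of which tuberin acts on Rheb. Tsc1 (ENSMUSG00000026812, chromosome 2, 28641228 to 28691167) had 148, 151 and 129 CPM in Npas3+/- libraries, against 119, 109.7 and 135 CPM in WT libraries. Npas3+/- replicate 3 fell among the WT values, and the log2 fold change was 0.23 (SE 0.09). Tsc2 (ENSMUSG00000002496, chromosome 17, 24595816 to 24632630) had 135, 116 and 131 CPM in Npas3+/- and 120.0, 108 and 115 CPM in WT. Here it was Npas3+/- replicate 2 that fell below WT replicate 1, and the log2 fold change was 0.15 (SE 0.07). Tsc2 shares 693 exonic bases, 7.20% of its exon length, with Pkd1 on the opposite strand, and the use of strand in the counting is not given in the sources used here. Of its 10179 windows of 50 bases, 829 (8.14%) occur in transcripts of other genes, and the handling of reads with several matches is likewise not given. Pkd1, the polycystic kidney disease gene, averaged 193 ± 7.44 CPM in Npas3+/- and 169 ± 4.32 CPM in WT (log2 fold change 0.19, SE 0.05, adjusted p = 0.276 in edgeR).

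Rheb, the GTPase that switches mTORC1 on (ENSMUSG00000028945, chromosome 5, 24802823 to 24842624), had 121, 121 and 116 CPM in Npas3+/- libraries, against 134, 126 and 112 CPM in WT libraries. The Npas3+/- values lay within the WT range, and the log2 fold change was -0.06 (SE 0.07). Its paralog Rhebl1 averaged 22.8 ± 3.43 CPM in Npas3+/- and 19.7 ± 2.78 CPM in WT (log2 fold change 0.21, SE 0.15, adjusted p = 0.616 in edgeR).

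Rraga and Rragc encode RagA and RagC, which pair into the heterodimer that recruits mTORC1. Rraga (ENSMUSG00000070934, chromosome 4, 86575668 to 86577285), a gene of 1 annotated transcript, had 83.3, 79.3 and 83.8 CPM in Npas3+/- libraries, against 78.1, 91.3 and 85.9 CPM in WT libraries. Rragc (ENSMUSG00000028646, chromosome 4, 123917446 to 123936997) had 51.7, 57.3 and 55.3 CPM in Npas3+/- and 56.4, 56.9 and 52.5 CPM in WT. Both overlapped between the genotypes, with log2 fold changes of -0.05 (SE 0.07) for Rraga and -0.01 (SE 0.07) for Rragc. The 95% intervals, unadjusted, ran from -0.22 to 0.12 for Rraga and from -0.18 to 0.15 for Rragc.

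The paralogs Rragb and Rragd can take the places of Rraga and Rragc. Rragb averaged 42.4 ± 1.88 CPM in Npas3+/- and 46.6 ± 4.37 CPM in WT (log2 fold change -0.14, SE 0.09, adjusted p = 0.596 in edgeR). Rragd averaged 94.7 ± 5.95 CPM in Npas3+/- and 78.8 ± 9.99 CPM in WT (log2 fold change 0.27, SE 0.10, adjusted p = 0.368 in edgeR). Of the 1569 windows of 50 bases in Rraga, 0 occur in a transcript of another annotated gene, Rragb included, but of the 3334 windows of Rragc 225 do (6.75%). The exons of Rragc share 264 bases, 7.90% of their length, with 4930535I16Rik on the opposite strand, which was not among the genes tested.

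Lamtor1 (ENSMUSG00000030842, chromosome 7, 101905904 to 101926675) encodes the lipid-anchored subunit that fixes Ragulator to the lysosomal membrane. It had 56.3, 54.5 and 55.1 CPM in Npas3+/- libraries, against 46.8, 60.4 and 55.6 CPM in WT libraries. The Npas3+/- values lay within the WT range, with an SD of 1.74% of the mean in Npas3+/- and 12.7% in WT. The log2 fold change was 0.03 (SE 0.10). Its exons share 600 bases, 18.7% of their length, with Lrrc51 on the opposite strand, but Lrrc51 was counted at only 0.640 ± 0.110 CPM in Npas3+/- and 0.811 ± 0.105 CPM in WT. Of the 3166 windows of 50 bases in Lamtor1, 810 (25.6%) occur in transcripts of other genes, 551 of them in Lrrc51, the largest share among the 10 genes. Tomt overlaps its span without sharing exons and was at 1.018 ± 0.557 CPM in Npas3+/- and 1.33 ± 0.196 CPM in WT. Rptoros, an antisense RNA that shares 84 exonic bases with Rptor, was at 0.167 ± 0.0729 CPM in Npas3+/- and 0.221 ± 0.215 CPM in WT.

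The groups did not overlap in 2 of the 10 genes, Tmem127 and Mtor, both higher in Npas3+/-, where 9.70% of all genes tested separated in that direction. In edgeR 1 of the 10, Tmem127, passed the threshold, where 0.0377% of all genes did in either direction and 0.0282% did as higher in Npas3+/-. At an unadjusted p under 0.05 there were 3, Tmem127, Mtor and Tsc1, all higher in Npas3+/-, where 6.29% of all genes were. Since the genes were chosen with this comparison known, nothing is read from these counts. The median log2 fold change was 0.09 over the 10 genes and 0.04 over the 9 without Tmem127, beside -0.01 over all genes tested, whose median absolute log2 fold change was 0.17. The difference was positive for 7 of the 10 genes.

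**Figure D3:**
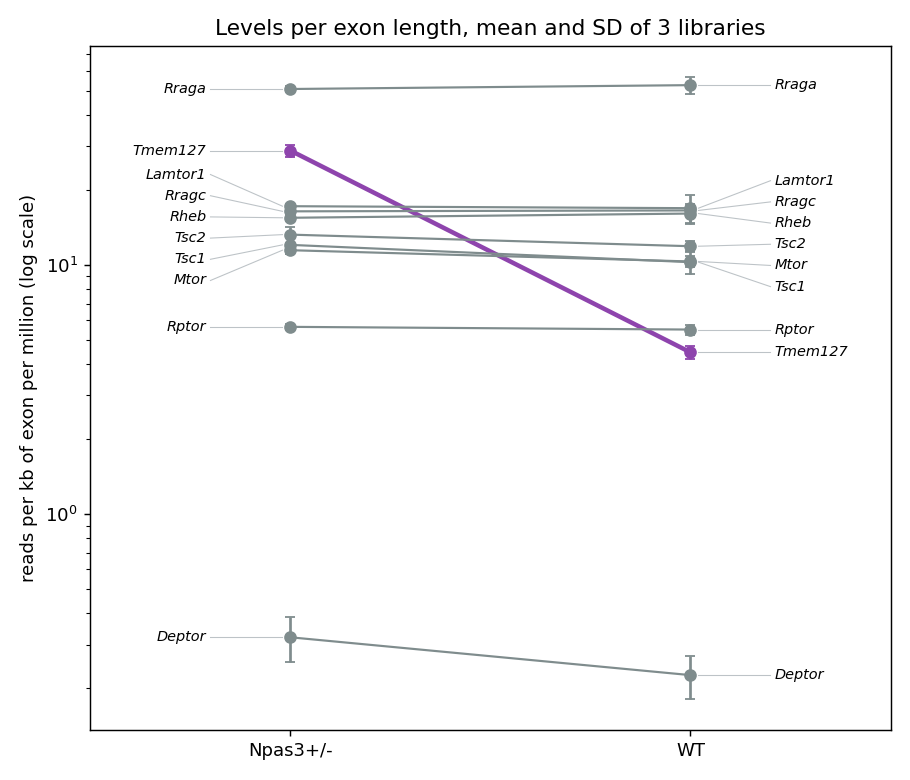
CPM per kb of annotated exon (RPKM, log axis) of the 10 genes, as the mean with the SD of 3 libraries, in Npas3+/- (left) and WT (right), joined by a line per gene. Tmem127 (purple) is second from the top at 28.7 in Npas3+/- and second from the bottom at 4.46 in WT, and Rraga is highest in both.

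Scaled to exon length, as CPM per kb of annotated exon (RPKM), the levels of the 10 genes can be ordered within each genotype. Rraga was highest in both, at 50.8 ± 1.52 RPKM in Npas3+/- and 52.6 ± 4.10 in WT (SD, n = 3 each). Tmem127 followed in Npas3+/- cortex at 28.7 ± 1.64 but was 9th of the 10 in WT cortex at 4.46 ± 0.279. Among all genes tested, that put Tmem127 at the 91.7th percentile of level per exon length in Npas3+/- and at the 58.9th in WT.

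The remaining genes kept close levels. Lamtor1, Rragc and Rheb formed a run whose neighbours overlapped between libraries, at 17.2, 16.4 and 15.5 RPKM in Npas3+/- and 16.9, 16.5 and 16.1 in WT. Below them came Tsc2, at 13.2 in Npas3+/- and 11.9 in WT, then Tsc1 at 12.03 in Npas3+/- and 10.3 in WT and Mtor at 11.5 in Npas3+/- and 10.3 in WT. In Npas3+/- each of these overlapped the next, and in WT Mtor and Tsc1 overlapped while Tsc2 lay above Mtor in every library. Rptor stood apart at 5.64 in Npas3+/- and 5.50 in WT, and Deptor was lowest at 0.321 in Npas3+/- and 0.226 in WT. These levels depend on the annotated exon length, which counts all exons of a gene whether or not the cortex uses them.

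bHLH-PAS dimers are known to bind DNA at a core of ACGTG, and the palindrome CACGTG, which contains it, is the core bound by the MiT family of lysosomal transcription factors that mTORC1 controls. RefSeq windows of 250 bases before to 50 bases after the gene start (GRCm38.p6) were at hand for 9 of the 10 genes, all but Deptor. ACGTG on either strand was present in 5 of the 9 windows and in 19.6% of all windows of that length. CACGTG was present in 3 of the 9 and in 7.15% of all windows. The 91 bases between Tmem127 and Ciao1 hold no ACGTG on either strand. The sites are shown with 10 bases on each side, on the strand of the gene, with the motif in capitals. They let the Tmem127 site be compared with the palindromes of Rheb, Rragc and Lamtor1.
Tmem127 (chr2:127247734-127247758): ctaggaattgACGTGcccgctgttg
Rptor (chr11:119602861-119602885): aggagaaaagACGTGgtaacctcgg
Rheb (chr5:24842442-24842467, reverse strand): cgcgcgcggtCACGTGggtgtgttgt
Rragc (chr4:123917311-123917336): tgattccgggCACGTGatagtaccac
Lamtor1 (chr7:101905759-101905784): gccttcctatCACGTGccgcgggtcc
Lamtor1 holds a further CACGT, which is ACGTG on the other strand, within the same window. The site of Tmem127 starts 204 bases before its RefSeq start and lies inside the span of Ciao1. A match of letters is a description and shows no binding.

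A wider set of 162 genes of the pathway, in 10 lists arranged by role, was examined beside the members. None of the 162 passed over all genes by the edgeR test, where 0.0377% of all genes did, and none in limma-voom. The targeted gene Npas3 did not pass by the edgeR test either. At an unadjusted p under 0.05 there were 16, 12 higher and 4 lower in Npas3+/-, or 9.88% of the set, beside 12.1% of all genes tested. DESeq2 called 3 of them, Telo2, Flcn and Cln3, where it called 3.17% of the genes to which it gave an adjusted p. Not all of the 162 got an adjusted p there. Positive and negative fold changes were equally frequent, 81 of each, and the median was -0.0003.

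**Figure D4:**
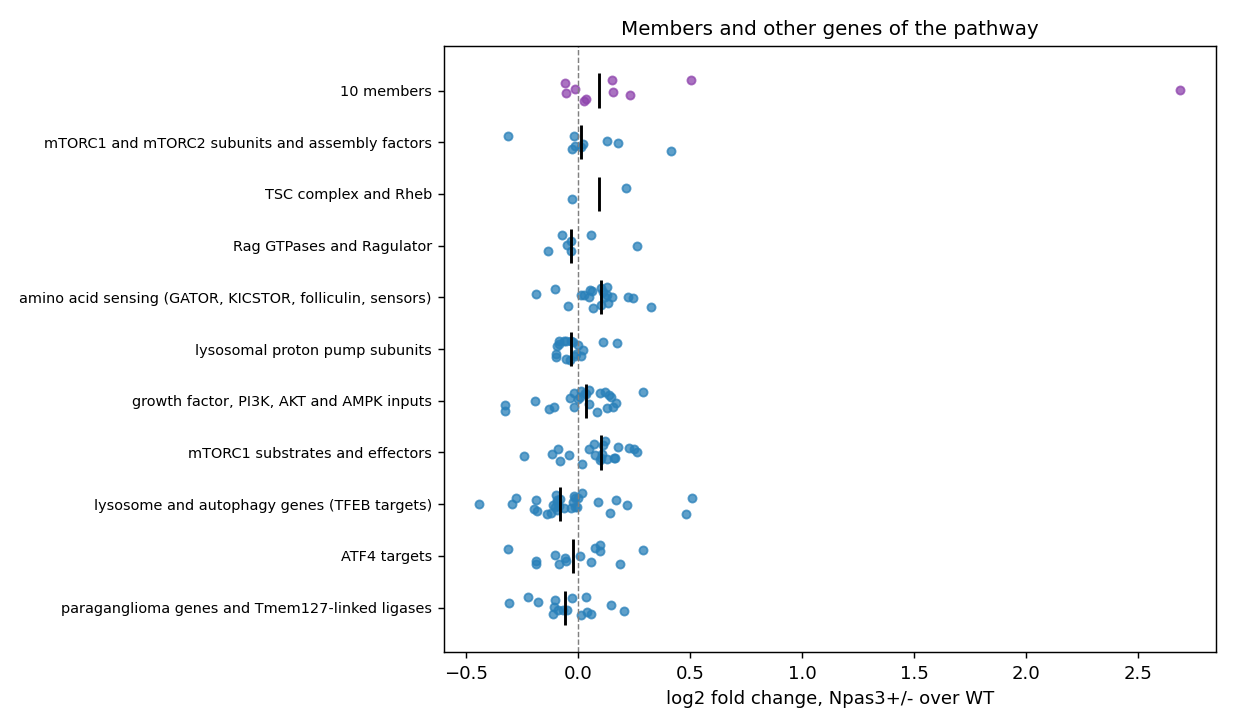
Log2 fold change of Npas3+/- over WT (horizontal) for the 10 members (purple) and the other genes of each pathway list (blue), with a black bar at each median and vertical scatter added to separate points. The list medians lie between -0.08 and 0.11, and Tmem127 is the single point at 2.69.

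Among the subunits and assembly factors of both mTOR complexes, 5 of 9 genes outside the members had positive fold changes, with a median of 0.01. Telo2, a co-chaperone needed for stable mTOR protein, averaged 51.3 ± 3.44 CPM in Npas3+/- and 38.4 ± 3.79 CPM in WT (SD, n = 3 each). Its groups did not overlap, and its log2 fold change of 0.42 (SE 0.09) had an adjusted p of 0.276 in edgeR and 0.0109 in DESeq2. Mapkap1, a subunit of mTOR complex 2, averaged 49.8 ± 15.9 CPM in Npas3+/- and 61.8 ± 14.9 CPM in WT (log2 fold change -0.31, SE 0.25, adjusted p = 0.669 in edgeR). The only other genes of the TSC and Rheb list were Rhebl1 and Tbc1d7, the third subunit of the TSC complex, which stood at 10.6 ± 0.837 CPM in Npas3+/- and 10.8 ± 0.472 CPM in WT (log2 fold change -0.03, SE 0.11, adjusted p = 0.954 in edgeR).

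Of the 7 further genes of the Rag and Ragulator list, 2 had positive fold changes and the median was -0.03. The other 4 Ragulator subunits ranged over log2 fold changes of -0.07 for Lamtor3, -0.05 for Lamtor5, -0.03 for Lamtor4 and 0.06 for Lamtor2, each smaller than its SE. Slc38a9, the lysosomal arginine sensor, was at -0.03 (SE 0.07). The lysosomal proton pump, which works with Ragulator in amino acid sensing, had 5 of 18 subunit genes with positive fold changes, a median of -0.03 and none at an unadjusted p under 0.05. Atp6v1d, a pump subunit, averaged 95.2 ± 3.43 CPM in Npas3+/- and 101 ± 3.21 CPM in WT (adjusted p = 0.601 in edgeR), and Atp6ap2, an accessory protein of the pump, averaged 84.1 ± 4.68 CPM in Npas3+/- and 90.1 ± 5.06 CPM in WT (adjusted p = 0.622 in edgeR).

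In the list of amino acid sensing genes, which holds the GATOR and KICSTOR complexes, folliculin and the cytosolic sensors, 17 of 20 had positive fold changes with a median of 0.10, beside 48.2% of all genes tested with a positive value. Flcn encodes folliculin, which acts on RagC and RagD. It averaged 43.1 ± 2.56 CPM in Npas3+/- and 34.3 ± 2.35 CPM in WT (log2 fold change 0.33, SE 0.08, adjusted p = 0.276 in edgeR and 0.0343 in DESeq2). Its groups did not overlap. The folliculin partner Fnip1 went the other way, with a log2 fold change of -0.19 (SE 0.08), and was chosen for mention after its value was seen.

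Of the growth factor, PI3K, AKT and AMPK inputs, 15 of 24 had positive fold changes with a median of 0.03. Stk11, the kinase LKB1 that activates AMPK, averaged 84.7 ± 1.45 CPM in Npas3+/- and 69.2 ± 7.82 CPM in WT (log2 fold change 0.29, SE 0.09, adjusted p = 0.290 in edgeR). Pik3r2, a regulatory subunit of PI3K, averaged 214.5 ± 7.98 CPM in Npas3+/- and 191 ± 3.73 CPM in WT (log2 fold change 0.17, SE 0.05, adjusted p = 0.284 in edgeR). Over the 15 alternative ways of processing, the log2 fold change of Pik3r2 ran from 0.07 to 0.20.

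Among the substrates and effectors of mTORC1, 16 of 21 had positive fold changes with a median of 0.11. Ulk1, the kinase that starts autophagy, averaged 195 ± 5.11 CPM in Npas3+/- and 172 ± 7.09 CPM in WT (log2 fold change 0.18, SE 0.05, adjusted p = 0.281 in edgeR). Rps6, the ribosomal protein whose phosphorylation is the usual readout of the pathway, averaged 373 ± 10.5 CPM in Npas3+/- and 404 ± 2.24 CPM in WT (log2 fold change -0.12, SE 0.04, adjusted p = 0.352 in edgeR). Phosphorylation itself, by which the complex acts on most of these proteins, is not read by RNA sequencing.

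The lysosome and autophagy genes, known targets of TFEB, had negative fold changes in 24 of 31, with a median of -0.08. Cln3, a lysosomal membrane protein gene mutated in juvenile Batten disease, was the exception with the smallest p. It averaged 11.8 ± 1.48 CPM in Npas3+/- and 8.31 ± 0.728 CPM in WT (log2 fold change 0.51, SE 0.14, adjusted p = 0.276 in edgeR and 0.0353 in DESeq2). Lamp1, a main protein of the lysosomal membrane, averaged 179 ± 7.83 CPM in Npas3+/- and 197 ± 3.57 CPM in WT (log2 fold change -0.14, SE 0.05, adjusted p = 0.358 in edgeR). The summed markers of radial glia and astrocytes were also lower in all 3 Npas3+/- libraries, by the values given above, and their part in this list was not tested.

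The list of ATF4 targets, the amino acid synthesis and stress genes that respond to mTORC1, was split evenly, with 7 of 14 positive and a median of -0.02. Shmt2, a mitochondrial enzyme of serine metabolism, averaged 45.0 ± 2.02 CPM in Npas3+/- and 36.8 ± 3.65 CPM in WT (log2 fold change 0.29, SE 0.09, adjusted p = 0.308 in edgeR). Aldh18a1, an enzyme of proline synthesis, averaged 66.3 ± 3.03 CPM in Npas3+/- and 58.2 ± 3.08 CPM in WT (log2 fold change 0.19, SE 0.07, adjusted p = 0.361 in edgeR).

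The last list joined the other genes mutated in paraganglioma, the tumour in which TMEM127 is lost in humans, with ubiquitin ligases of the NEDD4 family, of which WWP2 is known to work with TMEM127 in human cells. Of its 16 genes outside the members 6 had positive fold changes, the median was -0.06 and 0 had an unadjusted p under 0.05. Sdhc, a subunit of succinate dehydrogenase, averaged 70.6 ± 1.47 CPM in Npas3+/- and 76.2 ± 2.06 CPM in WT (log2 fold change -0.11, SE 0.06, adjusted p = 0.480 in edgeR). The ligase gene Itch averaged 62.1 ± 3.76 CPM in Npas3+/- and 53.9 ± 6.43 CPM in WT (log2 fold change 0.20, SE 0.10, adjusted p = 0.454 in edgeR). Wwp2 was at 45.5 CPM in Npas3+/- and 43.7 CPM in WT, and the receptor gene Ret was at 3.78 CPM in Npas3+/- and 4.67 CPM in WT. Wwp2 and Ret were picked for mention and not by their p-values.

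The genes whose pattern over the 6 libraries was most like that of Tmem127 were sought among those with a mean of at least 1 CPM, by Pearson's r of log2 CPM. Since Tmem127 splits by genotype, this measure picks genes that split the same way and says nothing beyond that. The 5 highest were Zbtb9 (r = 0.998), Scarf2 (0.995), Fancg (0.995), Hid1 (0.993) and Stim2 (0.990). Only Zbtb9, a zinc finger gene on chromosome 17, had a fold change larger than that of Tmem127, at 25.1 ± 0.971 CPM in Npas3+/- and 0.651 ± 0.0701 CPM in WT (log2 fold change 5.27). Stim2, a calcium sensor of the endoplasmic reticulum, averaged 48.3 ± 1.05 CPM in Npas3+/- and 32.7 ± 1.22 CPM in WT (log2 fold change 0.56), and Hid1, a gene of dense-core vesicle formation, averaged 64.3 ± 0.282 CPM in Npas3+/- and 57.7 ± 0.737 CPM in WT (0.16). Fancg, of the Fanconi DNA repair complex, was at 25.7 CPM in Npas3+/- and 20.5 CPM in WT (0.33), and Scarf2, a scavenger receptor gene, at 4.07 CPM in Npas3+/- and 2.75 CPM in WT (0.56).

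The 3 lowest were Ptbp2 (r = -0.997), Tmem229a (-0.997) and Canx (-0.996). Ptbp2, a splicing regulator of young neurons, averaged 309 ± 2.25 CPM in Npas3+/- and 359 ± 1.09 CPM in WT (log2 fold change -0.22). Over the 15 alternative ways of processing, the log2 fold change of Ptbp2 ran from -0.23 to -0.07. Tmem229a averaged 13.9 ± 0.0926 CPM in Npas3+/- and 18.1 ± 0.348 CPM in WT (-0.38). Canx, the chaperone calnexin, averaged 262 ± 1.07 CPM in Npas3+/- and 274 ± 0.254 CPM in WT, and its log2 fold change of -0.06 became 0.005 when fold changes were corrected for the GC content of transcripts. Among the members, Mtor had the highest likeness to Tmem127 (r = 0.828) and Rheb the lowest (-0.346).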

How the data were processed

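RNA was sequenced from newborn cortex in 3 Npas3+/- and 3 WT libraries, and the authors deposited raw read counts per gene for these 6 libraries. The submitters' processing notes name mm10, featureCounts, HISAT2 2.1.0 and Trimmomatic 0.3.8. The annotation release, strand setting and handling of multiply matching reads are not given in the sources used here, so counts of overlapping genes are uncertain. Columns abbreviated NP were taken as Npas3+/-, the only genotype beside WT. Gene identifiers were matched without version to GENCODE M21, which named 53274 and left 105.

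Counts were analysed with edgeR 4.0.16 (filterByExpr, TMM, glmQLFit and glmQLFTest with genotype as the only term), adjusted by Benjamini-Hochberg over 21244 genes at 0.05. Each log2 fold change sets Npas3+/- over WT, its SE is the fold change over the square root of F, and levels are TMM-scaled CPM. With 3 against 3 libraries an exact two-sided permutation test cannot go below 0.1, so none was used. The biological coefficient of variation was 26.1%. The fits were also run on simulated counts with planted fold changes. The outcome is not given here, so how often a true change is missed is left unstated.

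The members, the lists and the naming rule were chosen with earlier results of these data known. The naming rule took the targeted gene, the members, their paralogs, overlapping genes, the 2 smallest p-values per list, neighbours of Tmem127, and the 5 most and 3 least alike genes. Fnip1, Slc38a9, Wwp2, Ret and the Ragulator genes Lamtor2 to Lamtor5 were named outside the rule. Overlapping genes that share no exonic bases with a member are not all named. A gene that the rule named in the amino acid sensing list is not reported here. Alternatives were DESeq2 1.42.0, limma-voom (limma 3.58.1), scaling by RLE or by upper quartile, other filters, a replicate block, a correction for GC content, and leaving out each library.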

Additional observations from a re-analysis of the deposited data

How the results depend on the processing

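The log2 fold change of Tmem127, which was chosen on this comparison, was 2.64 to 2.72 over the 15 alternatives. The log2 fold changes of the other 9 members moved by less than the larger SD of log2 CPM within a genotype under each alternative. For the fits with 1 library left out this is close to fixed by the measure. Dropping 1 of 3 values moves a mean by less than their SD, so those fits do not check it. Rptor, Rheb, Rraga, Rragc and Lamtor1 lay near enough to 0 to change sign under at least 1 alternative. The count of genes called over all genes was 8 and became 490 with DESeq2, 3 with the replicate block and 3 with the GC content correction and replicate block together, while leaving out 1 library gave 7 to 16, the highest without WT replicate 1. The members called numbered 1 and the neighbours of Tmem127 called numbered 0 in each alternative, 1 to 1 and 0 to 0 with a library left out. The pathway genes called numbered 0 except with DESeq2, which called 3, and were 0 to 0 with a library left out. No pairing by replicate number was seen: deviations from the group means correlated at 0.037, -0.030 and -0.088 for replicates 1 to 3. Libraries of unlike number correlated at -0.059 to 0.087. With 3 libraries per genotype these values cannot show that no pairing exists. Apart from the count over all genes, the block changed no call.

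Some non-member signs reversed. With 1 library left out, Rptoros ranged from -0.8492 to 0.7387 (positive without WT replicate 2), Tomt from -0.7234 to 0.0039 (positive without Npas3+/- replicate 1), Tbc1d7 from -0.0863 to 0.0284 (positive when either Npas3+/- replicate 2 or WT replicate 3 was missing) and Stard7 from -0.0525 to 0.0185 (positive when Npas3+/- replicate 3, WT replicate 2 or WT replicate 3 was missing). Canx stood at 0.0049 with the GC content correction, and at 0.0049 with that correction and the replicate block together. The cause was not tested. Deptor had the fewest reads of the members, 132 to 306 per library, and its SD between libraries was 20.4% of the mean in Npas3+/- and 19.5% in WT.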
